A study of Homo sapiens with 4 samples.

Results

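The 10 genes described here encode enzymes that make, interconvert and consume serine and glycine. They are PHGDH, PSAT1, PSPH, SHMT1, SHMT2, GLDC, AMT, GNMT, BHMT and CBS, out of 22148 genes in the Gene Ontology (GO) background of the study. They were chosen by name, with earlier results of these data known. A gene was called listed when its Ensembl identifier stood under at least 1 GO term in the authors' table of mRNAs that differed after treatment. A listed mRNA was therefore one that the authors called differentially expressed between a pair of libraries and that carried a GO annotation. An enzyme that was not listed may have been unaltered, undetected or untested, and these cannot be told apart.

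The study treated 2 established hepatocellular carcinoma cell lines, HepG2 and Huh7, by sonodynamic therapy (SDT), in which low-frequency ultrasound acts on cells that hold a sound-activated drug. The drug carriers were nanobubbles loaded with hematoporphyrin monomethyl ether (HMME), a sensitizer, and lonidamine (LND), an inhibitor of energy metabolism in tumor cells. Group A was HepG2 before and group B HepG2 after treatment, and group C was Huh7 before and group D Huh7 after treatment, with 1 library of rRNA-depleted total RNA in each of the 4 groups. Carrier, sensitizer, LND and ultrasound differed together between the groups, so that their parts cannot be told apart.

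The tables used here hold gene lists. They give neither an expression level nor the direction of a change for a gene, so nothing below says whether an mRNA rose or fell. With 1 library in each group there was no replicate error, and no test was made. The identity of the cell lines could not be checked against marker genes for the same reason, and the depth of each library was not analysed here, because the tables hold no reads.

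Serine is made from a glycolytic intermediate by PHGDH, PSAT1 and PSPH in turn. The serine hydroxymethyltransferases SHMT1 and SHMT2 then convert it to glycine and pass a carbon unit to folate, and the mitochondrial glycine cleavage system, which includes GLDC and AMT, releases a further carbon unit from glycine. In hepatocytes GNMT uses glycine to dispose of excess methyl groups, while homocysteine, the product of the methyl cycle, is either remethylated by BHMT or joined to serine by CBS on the way to cysteine.

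More of these enzymes than not were listed in HepG2, and PSPH was the 1 by which the cell lines parted. In group B vs. A the listed enzymes were PHGDH, PSAT1, PSPH, GLDC, GNMT and CBS, that is 6 of 10, where 21.6% of all background genes were listed. In group D vs. C they were PHGDH, PSAT1, GLDC, GNMT and CBS, that is 5 of 10, where 19.7% of all background genes were listed. The same 5 enzymes made up the overlap of both cell lines, against 10.3% of background genes. PSPH was listed in HepG2 only, which held for 11.3% of background genes, and no enzyme was listed in Huh7 only, which held for 9.43%. SHMT1, SHMT2, AMT and BHMT were listed in neither cell line, as were 69.0% of background genes. Because the enzymes were chosen with these lists known, the counts are a description and nothing is read from their distance to the background.

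**Figure D1:**
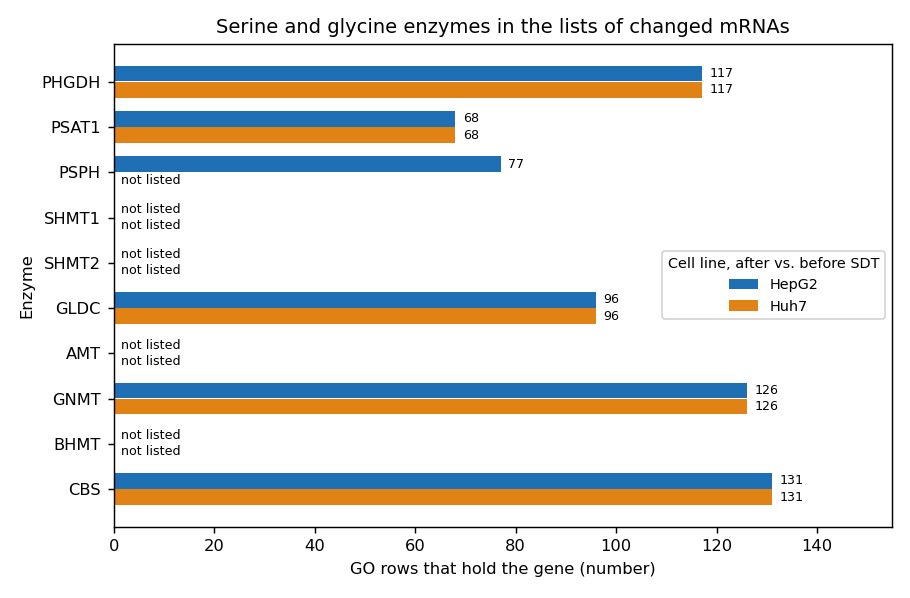
Number of GO terms under which each of the 10 enzymes stood in the tables of HepG2 (blue, group B vs. A) and Huh7 (orange, group D vs. C). The bars show annotation and not the size of a change. PHGDH, PSAT1, GLDC, GNMT and CBS had bars of equal length in both cell lines, PSPH had a bar of 77 terms in HepG2 alone, and the other 4 enzymes had none.

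Gene sequence bears on these lists, since CBS and AMT share most of their coding sequence with another gene and 5 further enzymes share a smaller part. Every stretch of 75 bases in the coding sequence of each enzyme was looked up in the transcripts of all other genes of the GENCODE annotation (GRCh38). For CBS 95.3% of the stretches also occurred in CBSL, and for AMT 94.0% also occurred in AC104452.1. GLDC shared 14.1% with the pseudogene GLDCP1, BHMT shared 8.04% with BHMT2, PSPH 3.83% with PSPHP1, PSAT1 1.54% with PSAT1P4 and SHMT1 0.218% with SHMT1P1. PHGDH, SHMT2 and GNMT shared no stretch with another gene.

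**Figure D2:**
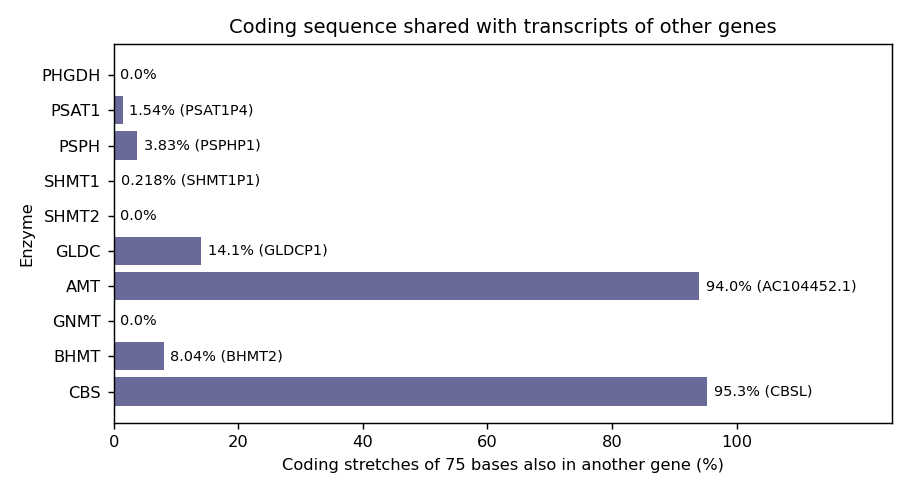
Share of the 75-base coding stretches of each enzyme that also occurred in a transcript of another gene, in percent, with the gene that shared most in brackets. AMT at 94.0% and CBS at 95.3% stood far above the other 8 enzymes, of which the highest was GLDC at 14.1%.

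CBS and CBSL are shown first because both were listed in both cell lines. CBS lies at chr21:43053191-43076943 on the minus strand, and CBSL lies on the same chromosome at chr21:6444869-6468040, also on the minus strand. In all 16 pairs of transcripts with coding sequences of equal length, these were 1653 bases long and differed at 1 base (99.9% identical). A CBSL transcript with 1695 coding bases was not in these pairs, and 95.4% of its stretches of 75 bases occurred in CBS. The stretch around that base lies within 1 exon, at chr21:43065210-43065270 for CBS-201 and at chr21:6456888-6456948 for CBSL-201 (GRCh38, minus strand, coding bases 669 to 729). It is written 5′ to 3′, and the capital marks the differing base at coding position 699.
CBS: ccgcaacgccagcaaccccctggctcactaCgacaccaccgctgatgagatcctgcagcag
CBSL: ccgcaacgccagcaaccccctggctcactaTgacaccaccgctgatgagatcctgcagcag
Coding reads from 1 of these genes that do not cover this base match the other gene as well, so the entries of CBS and CBSL in the lists are uncertain and may stand for the same mRNA.

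AMT and AC104452.1 are shown because the Huh7 list held the second and not the first. AC104452.1 is annotated as a protein-coding gene at chr3:49416777-49429314 on the minus strand, and it overlaps AMT at chr3:49416775-49422753 on the same strand. The coding sequences of a transcript of each gene ran together over 953 unbroken bases. The stretches around the point where they join cover coding bases 212 to 316 of AMT (exons within chr3:49421515-49422150) and coding bases 449 to 553 of AC104452.1 (exons within chr3:49421515-49425413), in GRCh38. They are written 5′ to 3′, and capitals mark the beginning of the coding sequence shared by these transcripts. The share of 94.0% for AMT counts all transcripts of AC104452.1, so lower-case bases of AMT may occur in others of them.
AMT: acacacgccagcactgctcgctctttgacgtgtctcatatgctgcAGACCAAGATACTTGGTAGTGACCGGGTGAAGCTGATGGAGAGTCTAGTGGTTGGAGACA
AC104452.1: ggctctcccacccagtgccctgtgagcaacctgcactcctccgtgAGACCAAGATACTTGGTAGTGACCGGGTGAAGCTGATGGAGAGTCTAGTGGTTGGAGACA
Reads from the capital part carry no mark of the gene they came from, so that AC104452.1 in the Huh7 list and the missing entry for AMT are both uncertain. Of the 75-base stretches of AC104452.1, 94.8% also occurred in 3 other genes, with 64.1% in AMT, which shared most. Its lower-case bases may therefore occur in a gene other than AMT, and its listing may come from such a gene.

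Of the serine synthesis enzymes, PHGDH and PSAT1 were listed in both cell lines and PSPH in HepG2. PHGDH (chr1:119648411-119744226, plus strand) oxidizes phosphoglycerate, the step at which carbon leaves glycolysis for serine. It stood under 117 GO terms in each table, namely 81 biological processes, 18 molecular functions and 18 cellular components. PSAT1 (chr9:78297143-78330093, plus strand) transfers an amino group to the product of PHGDH, and it stood under 68 terms in each table. The terms were the same in both tables for each enzyme listed in both cell lines, which follows from the annotation of a gene and says nothing of its change. PSPH (chr7:56011051-56051604, minus strand) removes the phosphate to release serine, and it stood under 77 terms in HepG2 and under none in Huh7.

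The GO term L-serine biosynthetic process had 7 background genes. It held PHGDH, PSAT1 and PSPH in HepG2, and PHGDH and PSAT1 in Huh7. Phosphoserine phosphatase activity, the function of PSPH, had 3 background genes, and in HepG2 all 3 were listed, namely PSPH, DUSP26 and PDXP. In Huh7 none of these 3 genes was listed under that term. A listing in HepG2 and its absence in Huh7 is not a tested difference between the cell lines, and no such test was possible from the lists.

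Sequences before an annotated start of PHGDH and of PSAT1 are shown because these are the synthesis enzymes listed in both cell lines. They were taken from RefSeq (GRCh38.p14) and cover the 250 bases before an annotated start, at chr1:119711684-119711933 for PHGDH and at chr9:78296875-78297124 for PSAT1, both on the plus strand. They are written 5′ to 3′, and capitals mark CCAAT, a promoter motif bound by the factor NF-Y, which was searched on both strands.
PHGDH: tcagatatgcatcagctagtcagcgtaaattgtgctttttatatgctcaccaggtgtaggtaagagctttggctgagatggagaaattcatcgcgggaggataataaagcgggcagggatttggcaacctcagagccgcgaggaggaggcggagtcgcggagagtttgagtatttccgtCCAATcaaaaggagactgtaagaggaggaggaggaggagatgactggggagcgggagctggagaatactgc
PSAT1: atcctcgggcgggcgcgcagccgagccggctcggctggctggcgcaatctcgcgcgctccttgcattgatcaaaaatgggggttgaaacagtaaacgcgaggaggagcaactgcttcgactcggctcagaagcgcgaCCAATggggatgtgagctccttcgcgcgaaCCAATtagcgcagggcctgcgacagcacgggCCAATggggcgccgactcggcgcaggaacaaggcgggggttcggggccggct
The PHGDH stretch lies inside the GENCODE interval of the gene given above, and the PSAT1 stretch lies before its interval. CCAAT occurred 1 time in the PHGDH stretch and 3 times in the PSAT1 stretch. This motif was picked after the sequences had been seen. Of 35116 human promoters of 300 bases (250 before and 50 after the start), 34.6% held CCAAT at least once and 3.26% held it 3 times or more. Among the 10 enzymes 8 had a promoter in the table, in 10 windows, and CCAAT occurred in 8 of these windows, belonging to 7 enzymes. PSPH and SHMT2 had none in the table. The composite element TGATGNAA, to which ATF4 and C/EBP factors bind together, and the E-box CACGTG, to which MYC binds, were searched on both strands of the same windows. Each occurred in 0 of the 10 windows, where 3.62% and 7.26% of all promoters held them, and this says only that these letters are not in the windows.

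The serine hydroxymethyltransferases were in neither list. SHMT1 (chr17:18327860-18363563, minus strand) is the cytosolic form and SHMT2 (chr12:57229327-57234935, plus strand) the mitochondrial form. The GO tables had no row for glycine hydroxymethyltransferase activity, the function of both enzymes. With neither enzyme listed, this is no separate result. Whether SHMT1 and SHMT2 were expressed in the cells is not known from the tables.

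Of the glycine cleavage system, GLDC was listed in both cell lines. GLDC (chr9:6532464-6645783, minus strand) is the decarboxylating subunit, and it stood under 96 GO terms in each table, of which 28 were molecular functions. It was the only listed enzyme of the 10 under the term mitochondrion in either cell line, while PHGDH, PSAT1, GNMT and CBS stood under cytosol in both cell lines and PSPH in HepG2. GCSH, the subunit that carries the lipoyl arm, was listed in HepG2 only. DLD, the dehydrogenase subunit, and LIAS, LIPT1 and LIPT2, which attach the lipoyl group, were in neither list.

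AMT, the subunit that hands the carbon unit to folate, was in neither list by its own identifier. The term aminomethyltransferase activity had 3 background genes, and it held GCSH in HepG2 and AC104452.1 in Huh7. Glycine decarboxylation via the glycine cleavage system had 6 background genes, of which GLDC and GCSH were listed in HepG2 and GLDC and AC104452.1 in Huh7. AC104452.1 stood under 51 GO terms in the Huh7 table. Both cell lines therefore held GLDC with 1 further gene under that term, but not the same gene.

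GNMT and CBS were listed in both cell lines and BHMT in neither. GNMT (chr6:42960758-42963880, plus strand) stood under 126 terms in each table, of which 95 were biological processes. CBS stood under 131 terms in each table, the most of the 10 enzymes, and CBSL under 65. BHMT (chr5:79111779-79132290, plus strand) was in neither list. Its neighbor BHMT2 (chr5:79069717-79089466, plus strand), which methylates homocysteine with another donor, was listed in Huh7 under 84 terms. Betaine-homocysteine S-methyltransferase activity accordingly had 0 of its 2 background genes listed in HepG2 and 1 in Huh7, which was BHMT2. Cystathionine beta-synthase activity had both of its background genes, CBS and CBSL, listed in each cell line.

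The listed enzymes shared many GO terms with each other. Over the 15 pairs of the 6 listed enzymes in HepG2, the number of shared terms lay between 27 for PSAT1 with GLDC and 60 for GLDC with CBS. The 60 terms were 62.5% of those of GLDC and 45.8% of those of CBS. PHGDH and PSAT1 shared 48 terms, which were 41.0% of those of PHGDH and 70.6% of those of PSAT1. All 6 enzymes stood together under 24 terms, of which 2 had fewer than 1000 background genes, namely alpha-amino acid metabolic process with 267 and cellular amino acid metabolic process with 490. A term that many enzymes share is thus counted for each of them, and the terms are not independent of each other.

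The KEGG pathway Glycine, serine and threonine metabolism (hsa00260) holds the 10 enzymes and their neighbors, 40 background genes in all. In HepG2 20 identifiers were listed (50.0%), and in Huh7 22 (55.0%). Over all KEGG pathways together, with a gene counted once in each of its pathways, the shares were 26.3% in HepG2 and 25.8% in Huh7. Among pathways with at least 10 background genes, the pathway had the rank 3 of 272 by this share in HepG2 and the rank 3 of 274 in Huh7. Above it were Proximal tubule bicarbonate reclamation (52.2%) and Carbohydrate digestion and absorption (51.1%) in HepG2, and Complement and coagulation cascades (63.8%) and Proximal tubule bicarbonate reclamation (56.5%) in Huh7. The pathway was chosen with these values known, and its place is a description.

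The chosen enzymes were the smaller part of the listed genes of this pathway, with 6 of 20 in HepG2 and 5 of 22 in Huh7. The overlap of the cell lines held 13 identifiers, with 7 in HepG2 only and 9 in Huh7 only, that is 29 in all. Beside PHGDH, PSAT1, GLDC, GNMT and CBS, those listed in both were CBSL, CTH, which cleaves the product of CBS to cysteine, GAMT, which makes creatine, CHDH, which oxidizes choline, AGXT2, an aminotransferase of glyoxylate, and the amine oxidases AOC2, MAOA and MAOB. Beside PSPH, HepG2 alone held GCSH, AGXT, the peroxisomal enzyme that makes glycine from glyoxylate, DMGDH and PIPOX, which act on dimethylglycine and on sarcosine, and the glycolytic enzymes BPGM and PGAM2. Huh7 alone held SARDH, the sarcosine dehydrogenase, GATM, the first enzyme of creatine synthesis, and ALAS2, which starts heme synthesis from glycine. ALAS1, the other gene for that step of heme synthesis, was in neither list. Also in Huh7 alone were DAO, an oxidase of D-amino acids, SDSL, GLYCTK, ALDH7A1, BHMT2 and AC104452.1.

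The KEGG rows name each gene by a second number, and here the identifiers and the numbers parted. In the Huh7 row the identifier of BHMT2 was linked to the KEGG gene number of BHMT, and that of AC104452.1 to the number of AMT. CBS and CBSL were linked to 1 number in both cell lines. Read by KEGG number, 7 of the 10 enzymes were therefore in the Huh7 row, with AMT and BHMT added, while the count was still 6 in HepG2 and 5 in both. Counted as KEGG genes, the pathway had 19 listed genes (47.5%) in HepG2 and 21 (52.5%) in Huh7, with 12 in both. The rank 3 above rests on identifiers, with CBS and CBSL counted apart, and was not recomputed for KEGG genes. By identifiers, rank 4 was Alanine, aspartate and glutamate metabolism in HepG2 (48.6%, above 47.5%). In Huh7 rank 4 was Histidine metabolism (52.2%, below 52.5%). AMT appeared by number in 3 further Huh7 rows, namely One carbon pool by folate, Carbon metabolism and Metabolic pathways, and BHMT in Cysteine and methionine metabolism and in Metabolic pathways. Taken from the KEGG numbers alone, AMT and BHMT would stand as listed in Huh7, where the identifiers beside them belong to AC104452.1 and BHMT2.

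Neighboring KEGG pathways lay closer to the share over all pathways. One carbon pool by folate had 7 of 20 background genes listed in HepG2 (35.0%) and 6 in Huh7 (30.0%). Cysteine and methionine metabolism had 7 of 38 (18.4%) in HepG2 and 11 (28.9%) in Huh7. Biosynthesis of amino acids, which holds PHGDH, PSAT1, PSPH and CBS, had 18 of 74 (24.3%) and 21 (28.4%). Carbon metabolism had 21 of 106 (19.8%) and 18 (17.0%), and Glyoxylate and dicarboxylate metabolism 6 of 25 (24.0%) and 4 (16.0%). Glutathione metabolism, which uses both glycine and cysteine, had 9 of 49 (18.4%) and 10 (20.4%), and Sphingolipid metabolism, which begins with serine, had 11 of 47 (23.4%) and 14 (29.8%). Metabolic pathways, the widest row, had 24.6% and 24.5%.

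**Figure D3:**
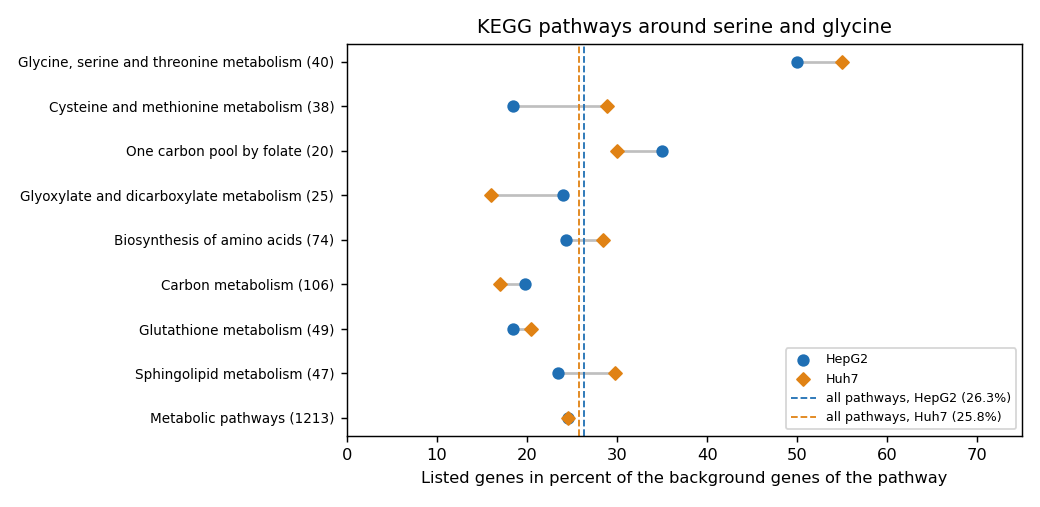
Listed genes in percent of the background genes of each KEGG pathway around serine and glycine (background number in brackets), for HepG2 (blue circles) and Huh7 (orange diamonds), with dashed lines at the share over all pathways. Glycine, serine and threonine metabolism stood at 50.0% and 55.0%, to the right of the other 8 pathways, which lay between 16.0% and 35.0%.

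Among GO terms named for serine, glycine, one-carbon units, folate, homocysteine, methionine or betaine, 121 rows were found, of which 24 held at least 1 of the 10 enzymes. At least 10 background genes were found in 24 of the 121 rows. Of those, 16 had a listed share above that of the whole list in HepG2 (21.6%), 16 in Huh7 (19.7%) and 12 in both. Serine family amino acid metabolic process had 16 of 47 background genes listed in HepG2 and 18 in Huh7, with 9 in both. Its biosynthetic branch had 11 of 22 (50.0%) in HepG2 and 8 (36.4%) in Huh7, and PHGDH, PSAT1, CBS, CBSL, CTH and AGXT2 were the 6 listed in both. Its catabolic branch had 4 of 16 in HepG2 (25.0%, near the whole list) and 6 in Huh7 (37.5%). L-serine metabolic process had 5 of 14 in each cell line (35.7%). Glycine metabolic process had 5 of 22 in HepG2 (22.7%, near the whole list) and 6 in Huh7 (27.3%).

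Some of these terms stood apart between the cell lines. Homocysteine metabolic process had 8 of 14 background genes listed in HepG2 (57.1%) and 4 in Huh7 (28.6%), with CBS, CTH and CPS1 in both and MTHFD1 among those of HepG2 alone. Tetrahydrofolate metabolic process had 9 of 21 in HepG2 (42.9%, against 21.6% of the whole list) and 5 in Huh7 (23.8%, against 19.7%). Glycine binding had 5 of 15 in HepG2 (33.3%) and 10 in Huh7 (66.7%). GLDC and GNMT were the only enzymes of the 10 under it, and the further genes were ALAS2 in Huh7 and subunits of glycine and glutamate receptors (GLRA1, GLRA2, GLRA3, GRIN1, GRIN2B, GRIN3A and GRIN3B). Receptor subunits were the larger part of the listed genes of this term in both cell lines, with GLRA2, GRIN1 and GRIN3B listed in both. Differences of this kind between the cell lines were not tested.

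**Figure D4:**
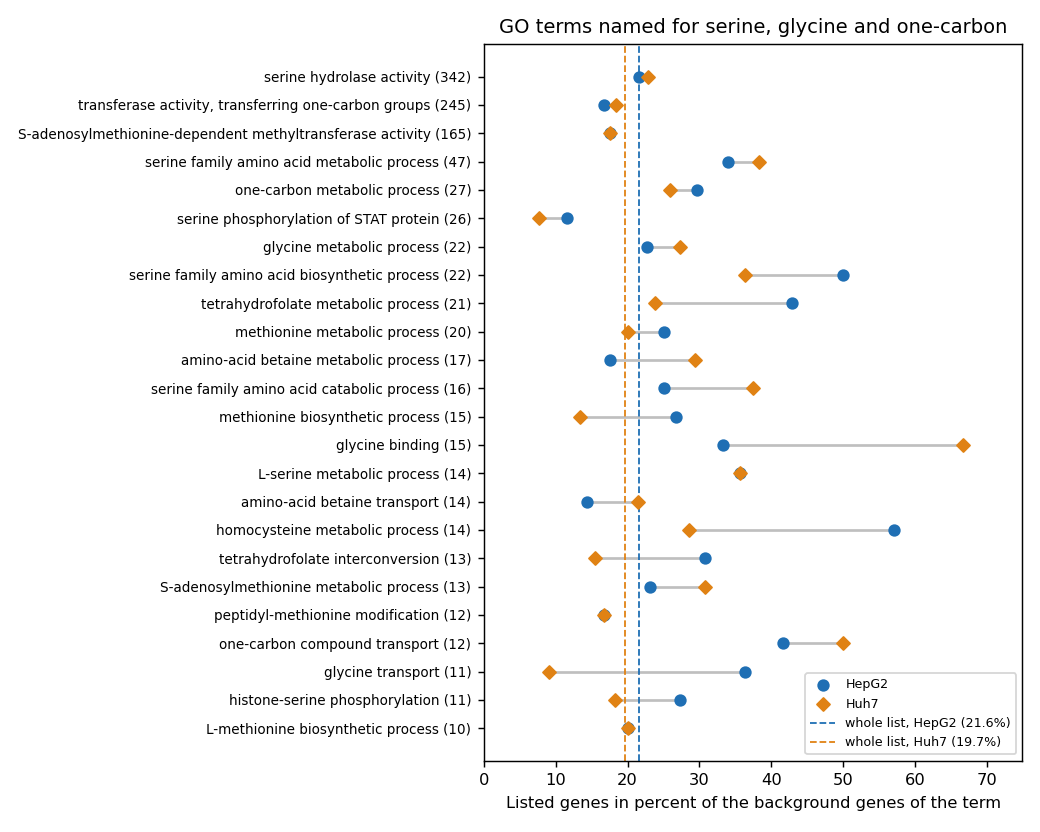
Listed genes in percent of the background genes of the 24 GO terms with at least 10 background genes (number in brackets), for HepG2 (blue circles) and Huh7 (orange diamonds), with dashed lines at the share of the whole list. Serine family biosynthesis (50.0% and 36.4%) lay right of both lines, glycine binding reached 66.7% in Huh7, and serine hydrolase activity, which concerns peptidases caught by the word serine, lay at 21.6% in HepG2 and 22.8% in Huh7.

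A list of 85 further genes of the same metabolism was then followed, which were also chosen with earlier results known. In each cell line 31 of them were listed (36.5%), where 21.6% of all background genes were listed in HepG2 and 19.7% in Huh7. The lists shared 19 of the 85 (22.4%, against 10.3% of all background genes), 12 were in HepG2 only, 12 in Huh7 only and 42 in neither. Without 9 transcriptional regulators the counts were 24 of 76 in HepG2 (31.6%), 27 in Huh7 (35.5%) and 15 in both (19.7%). Since the genes were chosen with the lists known, nothing is read from the distance to the background.

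Genes that feed and drain the glycine pool were followed next. Of 13 genes of serine, glycine and threonine breakdown, 3 were listed in HepG2 (23.1%, near the 21.6% of all background genes) and 5 in Huh7 (38.5%, against 19.7%), with AGXT2 and HOGA1 in both. Of 6 genes of choline, betaine and sarcosine, 3 were listed in HepG2 (50.0%) and 4 in Huh7 (66.7%), and no gene of this group was missing from both lists. CHDH, the first step from choline, was the 1 gene in both, DMGDH and PIPOX were in HepG2 alone, and ALDH7A1, BHMT2 and SARDH in Huh7 alone. The group leaves out BHMT, counted among the 10 enzymes, and ALDH9A1, counted under breakdown, both in neither list. Of 9 genes of the methionine cycle and transsulfuration, 1 was listed in HepG2 (11.1%) and 2 in Huh7 (22.2%), which was below the share of all background genes in HepG2 and near it in Huh7. CTH was listed in both cell lines and MAT1A, the synthase of S-adenosylmethionine in adult liver, in Huh7, while AHCY, MTR, MTRR and 4 others were in neither list.

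Of 12 folate genes, 6 were listed in HepG2 (50.0%, against 21.6% of all background genes) and 4 in Huh7 (33.3%, against 19.7%). Among those in both were MTHFD2 and ALDH1L2, enzymes of mitochondrial folate, and FTCD, which takes carbon units from histidine. MTHFD1L, MTHFD2L and MTFMT, also enzymes of mitochondrial folate, were in neither list, as was the mitochondrial folate carrier SLC25A32. MTHFD1 was in HepG2 alone. Of 15 genes that use glycine or serine, 5 were listed in HepG2 (33.3%) and 8 in Huh7 (53.3%). GAMT, GCLM, GLYATL1 and SPTLC3 were in both, PTDSS1, which makes phosphatidylserine, in HepG2, and ALAS2, BAAT, GATM and GCLC in Huh7. ALAS1 was among those in neither list. GCLM and GCLC are the subunits of the enzyme that starts glutathione synthesis.

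Of 16 carriers of serine and glycine, 5 were listed in HepG2 (31.2%, against 21.6% of all background genes) and 4 in Huh7 (25.0%, against 19.7%). SLC1A5, SLC38A4 and SLC6A20, carriers of the cell membrane, were in both, SFXN3 and the folate carrier SLC19A1 in HepG2, and SLC7A10 in Huh7. SFXN1, a serine carrier of mitochondria, and its relative SFXN2 were in neither list, while SFXN3 of the same family was the one listed in HepG2. Of the 9 regulators 7 were listed in HepG2 (77.8%) and 4 in Huh7 (44.4%). ATF4, the factor that switches on PHGDH, PSAT1 and PSPH when amino acids are short, was listed in both cell lines, as were ATF3, CEBPB and DDIT3, which act with or after it. MYC, MDM2 and KDM4C were listed in HepG2 alone, and NFE2L2 was among those in neither list. Since the lists give no direction, it is not known whether ATF4 and the enzymes moved the same way.

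**Figure D5:**
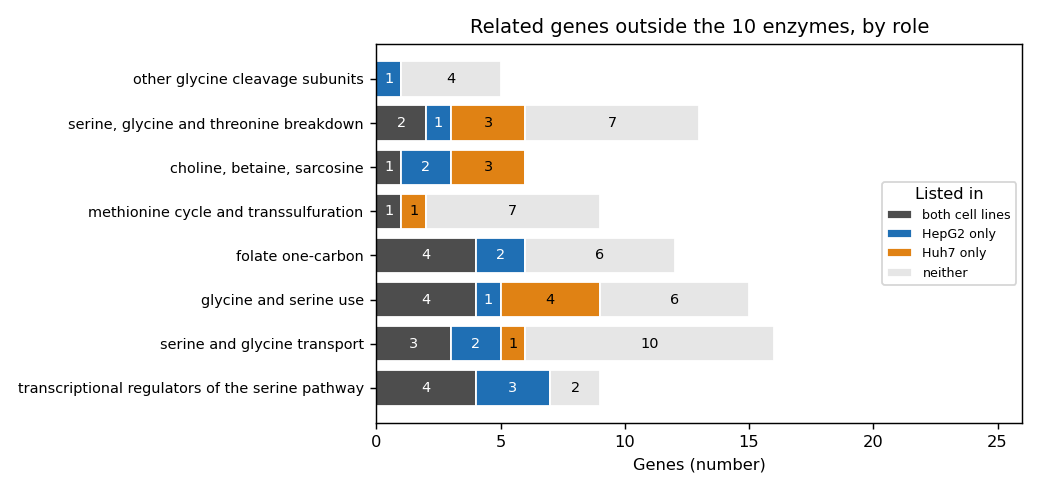
Number of the 85 related genes outside the 10 enzymes by role, split into those listed in both cell lines (dark gray), in HepG2 only (blue), in Huh7 only (orange) and in neither (light gray). The choline, betaine and sarcosine group, which leaves out BHMT and ALDH9A1, had no light gray part. The regulators had 4 genes in both cell lines and 3 in HepG2 only.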

How the data were processed

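Each cell line gave a library before treatment (group A for HepG2, group C for Huh7) and another after SDT (group B for HepG2, group D for Huh7), and rRNA was removed from total RNA before sequencing. The submitters' processing notes name Bowtie2 2.2.8, HISAT2, StringTie 1.3.1 and Cuffdiff 2.1.1. For the calls of differential mRNAs the study names Cuffdiff in its methods and edgeR in its results. The authors tested GO terms with GOseq and KEGG pathways with KOBAS. The genome build is not given in the sources used here.

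The values deposited by the authors and used here are 4 tables, for GO and KEGG in each cell line, with counts of listed and background genes and the identifiers of the listed genes. These are counts of genes and not of reads. The p-value and corrected p-value columns of the tables are the authors' own comparisons and were not used. The identifiers matched the stated number in all 14390 and 13760 GO rows and in all 279 and 280 KEGG rows of HepG2 and Huh7. The union over GO terms gave 4783 genes for HepG2 and 4369 for Huh7, of 22148.

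The 10 enzymes, the related genes, the pathways and the word rule for GO terms were chosen with earlier results of these data known. Named genes were all 10 enzymes, all listed genes of the KEGG pathway and the listed genes of each role. A few genes under single GO terms were named after their values had been seen. Symbols and positions came from GENCODE by gene identifier, coding sequences from its transcripts and promoters from RefSeq. The coding stretches of 75 bases were compared by exact match on the transcript strand; how the authors assigned reads that match several genes is not given in the sources used here. Reading the KEGG gene numbers and counting each KEGG gene once were settings chosen after seeing the data. The motif search and the comparison of stretches were tested on simulated sequences, and the counts from the lists were not tested in this way. All steps ran in Python 3.11.15 with matplotlib 3.10.9. Some genes of these groups are counted but not reported here by name.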

Additional observations from a re-analysis of the deposited data

How the results depend on the processing

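Of 32 values recomputed for 7 counts and shares, 22 equalled the reported value and 10 differed from it. Of these 4 moved, that is a count by over 1.5 times or a share out of its 95% binomial interval. The interval served only as a limit for this sorting. It treats the genes of a pathway as independent and measures no replicate error. One setting kept only the 7 enzymes of serine synthesis, its conversion to glycine and glycine cleavage, that is without GNMT, BHMT and CBS. It gave 3 listed in Huh7 and 3 in both cell lines, which moved, and 4 in HepG2, which did not move. If the KEGG background left out the listed genes, the share of Glycine, serine and threonine metabolism would be 33.3% in HepG2 and 35.5% in Huh7. These moves follow from the smaller set and the larger denominator. KEGG rows in place of GO rows gave 26 of the related genes in HepG2 and 27 in Huh7. KEGG numbers in place of identifiers gave 7 enzymes in Huh7, and KEGG genes counted once gave shares of 47.5% in HepG2 and 52.5% in Huh7, both settings chosen after seeing the data. No paired analysis was possible because the tables hold gene lists without expression levels, with 1 library in each group. Depth could not be weighed, since the tables hold no reads, and low expression of an enzyme that was not listed was not tested.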
